A study of Mus musculus with 9 samples.

Results

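The 10 genes described here encode the interferon-inducible parts of the proteasome and of the machinery that loads peptides onto MHC class I: Psmb8, Psmb9, Psmb10, Psme1, Psme2, Tap1, Tap2, Tapbp, B2m and Nlrc5. They were taken by symbol, and every probe set annotated to 1 of these symbols alone was used, which gave 15 of the 45101 probe sets on the array, for 9 of the 10 genes. The only probe set of Psme2, an activator subunit, is annotated to Psme2 and Psme2b together and is given no value. To be tested, a probe set had to exceed its array's 40th percentile in 2 or more arrays of the 9. This kept 11 of the 15 member probe sets, from 8 genes, among 29140 tested in all. The 4 that were not tested were the Nlrc5 probe set, 1 of 2 for Psmb8 and 2 of 4 for Tap1.

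Proteasomes cut intracellular proteins into peptides. In cells exposed to interferon, the catalytic subunits encoded by Psmb8, Psmb9 and Psmb10 replace their constitutive counterparts Psmb5, Psmb6 and Psmb7, and the PA28 activator of Psme1 and Psme2 can dock onto the core. Tap1 and Tap2 form the transporter that carries peptides into the endoplasmic reticulum, where tapasin (Tapbp) bridges the transporter to the MHC class I heavy chain, which is displayed at the cell surface with B2m, the class I light chain. Nlrc5 is the transcriptional activator of class I and its partner genes. Neuroendocrine tumours such as small cell lung cancer are known for low expression of this pathway.

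Cultured mouse cells were profiled on 9 Affymetrix Mouse430_2 arrays. All came from preSC, preneoplastic neuroendocrine cells isolated from lungs of mice of mixed C57BL/6 and 129/Sv background, whose conditional Rb, p53 and p130 alleles were targeted with Adeno-Cre virus, so this genotype is shared by every group. The groups were L-Myc-preSC (2 arrays), C-Myc-preSC (2 arrays) and N-Myc-preSC (2 arrays), which are preSC transduced with a retrovirus for the named Myc protein, and untransduced preSC (3 arrays). All were grown in RPMI1640 with 10% bovine growth serum and are labelled as free of stroma. The labels given here name no empty-virus control and no age of the mice, and they do not say which arrays came from the same culture or mouse. Replicates are described as biological in the series' design text, and the p-values measure the spread between these arrays. The labelled molecule is polyA RNA for L-Myc-preSC and preSC and total RNA for C-Myc-preSC and N-Myc-preSC. This label and the group therefore cannot be told apart when C-Myc-preSC or N-Myc-preSC is set against preSC or against L-Myc-preSC.

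Arrays did not always lie closest to their own group. Over the 29129 tested probe sets of other genes, centred on the mean of all 9 arrays, C-Myc-preSC 1 correlated with N-Myc-preSC 1 and 2 at r = 0.81 and r = 0.84 and with C-Myc-preSC 2 at r = -0.12. C-Myc-preSC 2 correlated at r = 0.88 with L-Myc-preSC 2, which correlated at r = 0.03 with L-Myc-preSC 1. PreSC 1 and preSC 2 correlated at r = 0.91, and preSC 3 with them at r = 0.52 and r = 0.54. These correlations describe the arrays across probe sets, which are not independent replicates. Each transduced gene was high in the group named for it on at least 1 probe set: Mycl (1422087_at) was 11.79 and 12.74 in L-Myc-preSC, against 5.39 to 5.74 in preSC, and Mycn (1425922_a_at) was 9.05 and 8.46 in N-Myc-preSC, against 6.05 to 6.39 in preSC. Myc (1424942_a_at) was 11.22 and 10.68 in C-Myc-preSC, against 6.50 to 8.13 in preSC, but it was also 11.96 and 11.40 in N-Myc-preSC. A second Mycn probe set (1425923_at) went against the labels, at 12.92 and 13.33 in L-Myc-preSC and 13.54 and 13.08 in C-Myc-preSC, above the 11.64 and 11.07 of N-Myc-preSC, against 6.37 to 6.89 in preSC. The groups are therefore named as labelled. All values are on the log2 scale of the deposited RMA intensities, where a difference of 1 is a doubling. Of the 9 neuroendocrine markers with a probe set, 9 lay above the 40th percentile in every array, and their mean was 9.87 to 10.60 in the transduced arrays, against 10.72 to 11.01 in preSC. Of 11 leukocyte markers, Cd3e, Csf1r, Lyz2 and Laptm5 did so, and the pan-leukocyte gene Ptprc lay between 3.57 and 4.22, below that percentile (5.28 to 5.34) in all 9 arrays. Of the fibroblast and stroma markers, 1 of 8 in L-Myc-preSC, 2 in C-Myc-preSC, 4 in N-Myc-preSC and 3 in preSC lay above it in every array of the group. Of the endothelial markers 1 of 5 (Kdr) did so in each group, and of the club and alveolar markers 3 of 6 in L-Myc-preSC, 3 in C-Myc-preSC, 4 in N-Myc-preSC and 4 in preSC. Among them the surfactant gene Sftpc was 10.68 in C-Myc-preSC 1 and 10.59 and 11.10 in N-Myc-preSC, against 6.06 to 8.42 in the other 6 arrays, and the stromal gene Dcn was 10.32 in L-Myc-preSC 2, 9.69 in C-Myc-preSC 2 and 9.32 in preSC 3, against 5.29 to 6.86 in the other 6. Other markers of the same lists showed no such gap. Sftpb lay between 6.52 and 6.87 and Scgb1a1 between 3.75 and 4.09 over all 9 arrays. The stromal markers Col1a1 and Lum lay between 4.78 and 4.97 and between 4.20 and 4.84. The mean over the leukocyte markers ran from 5.19 to 5.77 in the transduced arrays, against 5.13 to 5.53 in preSC. The mean of the 18S ribosomal RNA control probe sets was 8.22 to 9.35 in the 6 transduced arrays, against 12.88 to 13.91 in the 3 preSC arrays, and the 5′ minus 3′ difference of the Dap spike-in was -1.68 to -1.51, against -3.66 to -3.40. These control values and the neuroendocrine marker mean move with every comparison against preSC below, and their part in the results was not tested.

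Of the genes listed, Tap2 and Tapbp fell in all 3 transduced groups relative to preSC, Tapbp on its brighter probe set only. Psmb10 and Psme1 passed the test in no group. The falls of Tap1 given below were likewise on its brightest probe set, and its other tested probe set did not fall. In L-Myc-preSC, 3 of the 11 tested member probe sets fell (Tap2, Tapbp and B2m), where 10.4% of all tested probe sets fell and 11.6% rose. In C-Myc-preSC, 6 fell (Psmb8, Psmb9, Tap1, Tap2, Tapbp and B2m), where 14.6% of all fell and 15.1% rose. In N-Myc-preSC, 5 fell (Psmb8, Psmb9, Tap1, Tap2 and Tapbp), where 17.4% of all fell and 17.3% rose. No member probe set rose. In bulk RNA of a culture, fewer cells that express a gene and less RNA per cell cannot be told apart. The median difference over the 11 was -1.21 in L-Myc-preSC, -1.67 in C-Myc-preSC and -0.90 in N-Myc-preSC, against medians of -0.01, -0.01 and 0.00 over all tested probe sets. Every transduced array lay below every preSC array at 7, 7 and 6 of the 11 probe sets in L-Myc-preSC, C-Myc-preSC and N-Myc-preSC, which was true of 26.8%, 27.6% and 33.4% of all tested probe sets. The 3 comparisons share the same preSC arrays and are not independent of each other. Differences are group means from limma fitted to all 9 arrays, with the standard error (SE), and adjusted p-values are limma's after Benjamini-Hochberg adjustment over the 29140 probe sets.

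**Figure D1:**
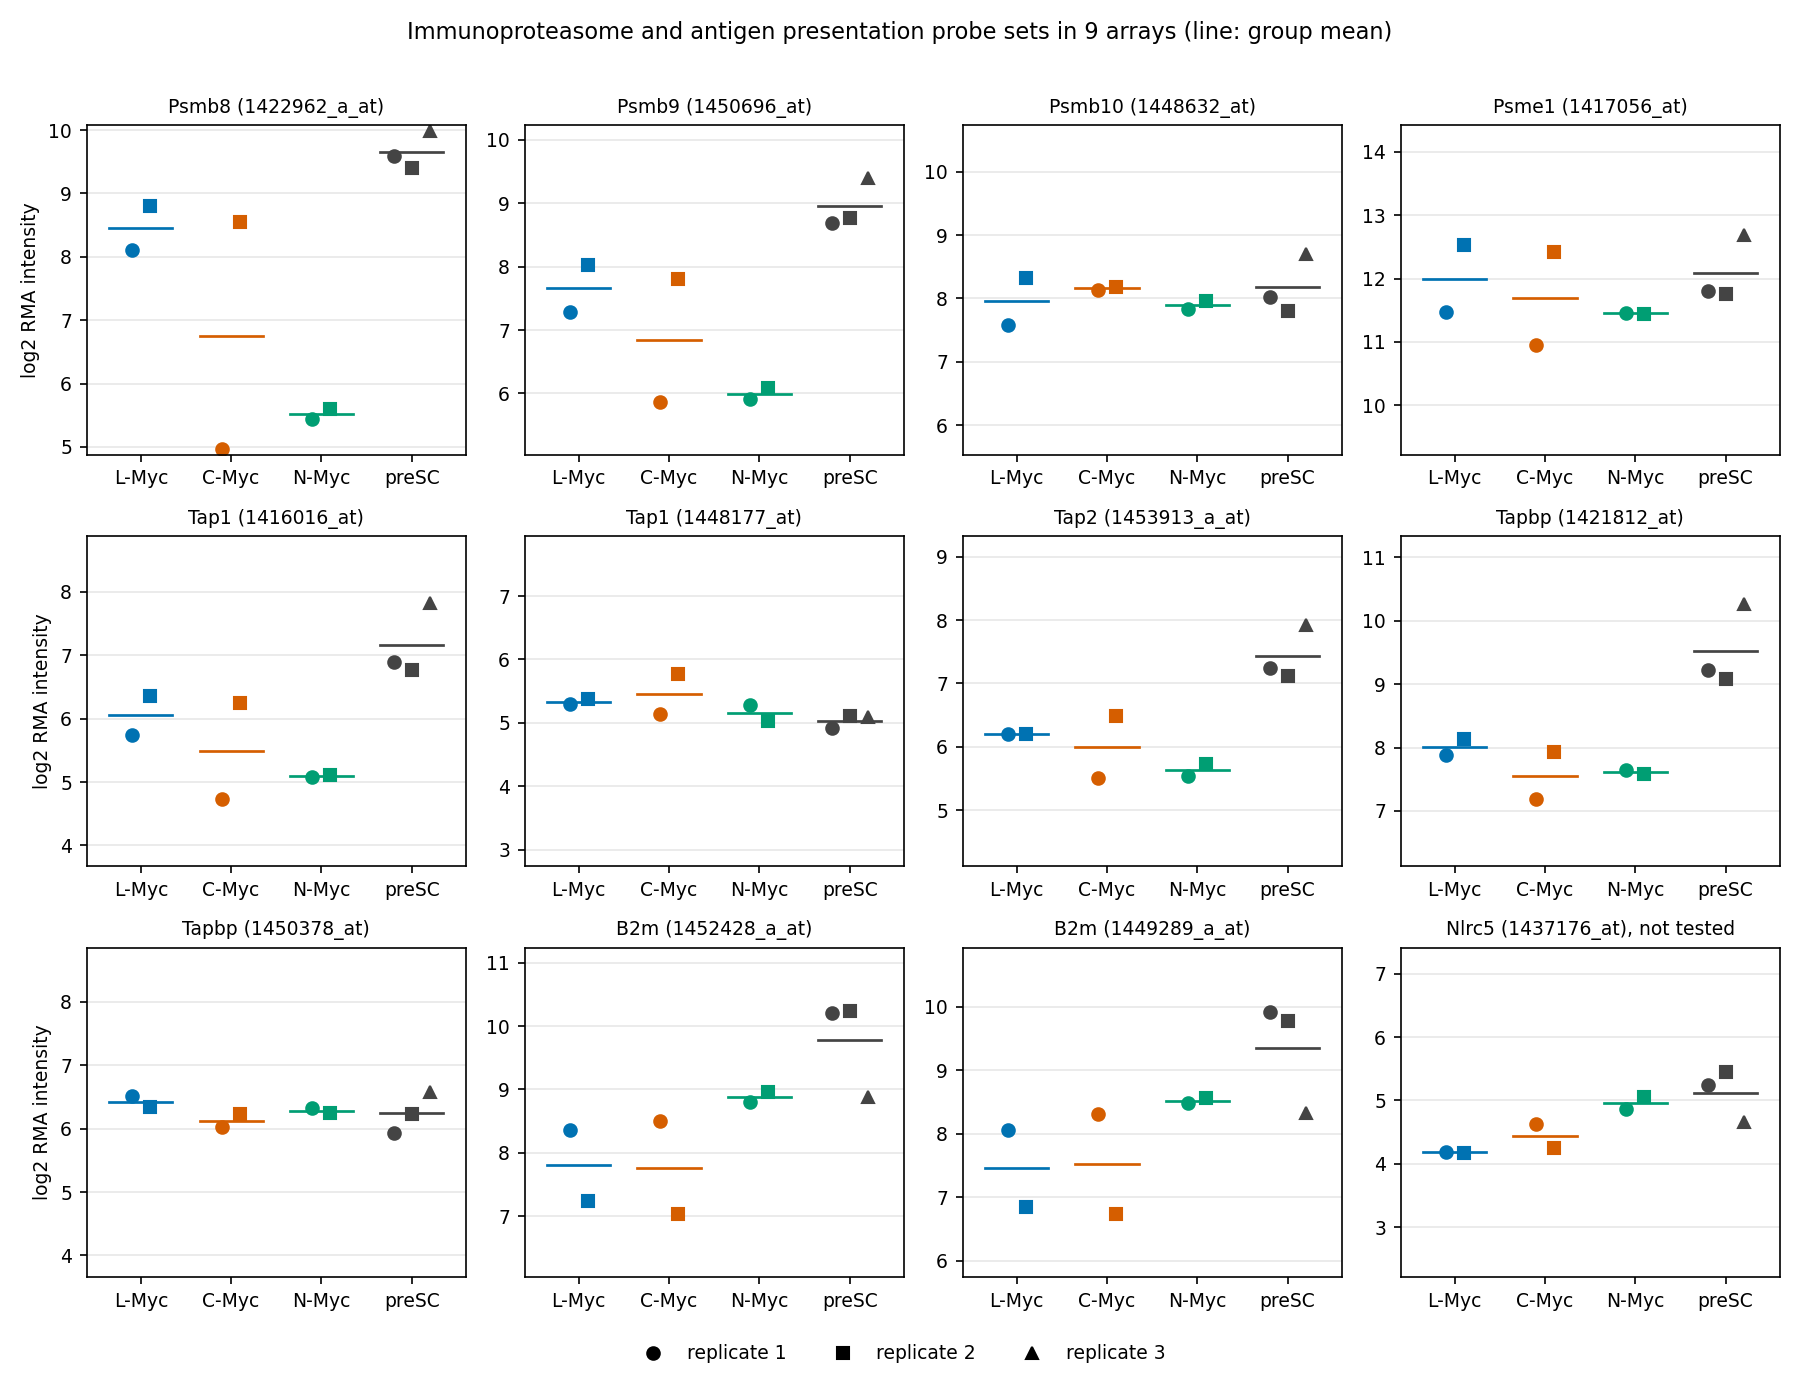
Log2 RMA intensity (y axis, each panel spanning the same number of log2 units) of the 11 tested member probe sets and of Nlrc5 in each array, by group on the x axis, with marker shapes for the replicate number and a line at the group mean. Psmb8 sat between 4.97 and 8.80 in the transduced arrays and between 9.40 and 9.99 in preSC, while Psmb10 sat between 7.58 and 8.69 over all arrays.

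Psmb8 encodes the inducible subunit with chymotrypsin-like activity. Its probe set (1422962_a_at) was 8.10 and 8.80 in L-Myc-preSC, 4.97 and 8.54 in C-Myc-preSC and 5.44 and 5.59 in N-Myc-preSC, against 9.59, 9.40 and 9.99 in preSC. All 6 transduced arrays lay below all preSC arrays, and C-Myc-preSC 1 and both N-Myc-preSC arrays were far lower than the other 3. These 3 low arrays are the ones in which Sftpc was high. Pvt1 (1427140_at) was high in them too, at 12.25 in C-Myc-preSC 1 and 12.91 and 13.07 in N-Myc-preSC, against 4.34 to 6.87 in the other 6 arrays. The part of either in the values of Psmb8 and of the members with the same order was not tested. Psmb8 averaged 5.52 ± 0.11 (SD, n = 2) in N-Myc-preSC and 9.66 ± 0.30 (SD, n = 3) in preSC, and fell by 4.14 (SE 0.87, adjusted p = 0.00976), or 17.7-fold. In C-Myc-preSC it fell by 2.90 (SE 0.87, adjusted p = 0.0396), and without C-Myc-preSC 1 the difference was -1.11 (adjusted p = 0.054). That call was also lost without any 1 array of preSC (adjusted p = 0.0835 to 0.0905), L-Myc-preSC (0.0504 each) or N-Myc-preSC (0.0688 each), without the filter on dim probe sets (0.0516), with 1 probe set per gene (0.051) and with only the arrays of both groups in the fit (0.0923), so it held in 5 of 17 other settings. The N-Myc-preSC call was lost without N-Myc-preSC 1 or 2 (adjusted p = 0.069 and 0.0616). The difference in L-Myc-preSC was -1.21 and did not pass (SE 0.87, adjusted p = 0.362), but it did with either C-Myc-preSC array left out of the fit (adjusted p = 0.0156 each) and with only the arrays of both groups (0.0371). The value of C-Myc-preSC 1 lies below the 40th percentile of its array, in a range where RMA compresses differences. The other Psmb8 probe set (1444619_x_at) ranged from 3.54 to 4.28 and was not tested.

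In RefSeq (GRCm38.p6), Psmb9, Tap1, Psmb8 and Tap2 are consecutive genes on chromosome 17, with Tapbp 28 places before Psmb9. Of the 10 members, 8 have promoters in the RefSeq table used here, which gave 9 windows of 300 bases, from 250 before to 50 after the start. They were searched on both strands for the interferon-stimulated response element core (GAAA, any 2 bases, GAAA), the gamma-activated site TTCNNNGAA, the NF-kB site (GGG, any 2 bases, TTTCC), the E-box CACGTG and the CCAAT box CCAAT. A match is only a match of letters. The 250 bases before the Psmb8 start (chr17:34197945-34198194, plus strand) are shown because this gene had the largest differences in C-Myc-preSC and N-Myc-preSC, with the gamma-activated site letters in capitals, 97 to 89 bases before the start. A gamma-activated site occurred in 8.3% of 32851 promoters and in no other member.
Psmb8: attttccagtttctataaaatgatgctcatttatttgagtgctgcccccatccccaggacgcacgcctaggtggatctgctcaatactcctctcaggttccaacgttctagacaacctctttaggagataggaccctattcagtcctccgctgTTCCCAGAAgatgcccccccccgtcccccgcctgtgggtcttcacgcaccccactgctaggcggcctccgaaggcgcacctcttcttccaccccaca

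Psmb9 encodes the inducible subunit that takes the place of the caspase-like one. Its probe set (1450696_at) was 7.29 and 8.03 in L-Myc-preSC, 5.87 and 7.80 in C-Myc-preSC and 5.92 and 6.08 in N-Myc-preSC, against 8.70, 8.77 and 9.40 in preSC. The order of the arrays was close to that of Psmb8: again no transduced array reached preSC, and C-Myc-preSC 1 stood beside N-Myc-preSC. Psmb9 fell by 2.96 in N-Myc-preSC (SE 0.53, adjusted p = 0.00547), or 7.77-fold, and this call held in all 17 other settings tried. It fell by 2.12 in C-Myc-preSC (SE 0.53, adjusted p = 0.021). Without C-Myc-preSC 1 the difference there was -1.15 (adjusted p = 0.0697), and the call was also lost without preSC 2 (-2.21, adjusted p = 0.0513) or preSC 3 (-1.90, adjusted p = 0.0522) or with only the arrays of both groups in the fit (adjusted p = 0.0538). The difference of -1.30 in L-Myc-preSC did not pass (SE 0.53, adjusted p = 0.121), but did with either C-Myc-preSC array left out (adjusted p = 0.0188 each) and with only the arrays of both groups (0.0428).

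Psmb10 encodes the inducible subunit with trypsin-like activity, and it passed the test in no comparison. It was 7.58 and 8.33 in L-Myc-preSC, 8.14 and 8.19 in C-Myc-preSC and 7.83 and 7.96 in N-Myc-preSC, against 8.03, 7.80 and 8.69 in preSC. Each transduced group overlapped preSC, and among the transduced groups C-Myc-preSC lay above N-Myc-preSC without overlap. The difference from preSC was -0.22 (95% interval -0.92 to 0.48) in L-Myc-preSC, -0.01 (-0.71 to 0.69) in C-Myc-preSC and -0.28 (-0.98 to 0.42) in N-Myc-preSC, so a fall as large as that of Psmb9 in C-Myc-preSC or N-Myc-preSC lies outside these intervals. Psmb10 was the one member with the E-box CACGTG in its promoter window, which 7.15% of all promoters held.

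Psme1, a subunit of the PA28 activator, was bright in every array. It was 11.47 and 12.52 in L-Myc-preSC, 10.96 and 12.42 in C-Myc-preSC and 11.46 and 11.45 in N-Myc-preSC, against 11.80, 11.76 and 12.69 in preSC. The second replicate of L-Myc-preSC and of C-Myc-preSC reached the range of preSC, whereas both N-Myc-preSC arrays lay just below it. None of the differences of -0.09, -0.40 and -0.63 in L-Myc-preSC, C-Myc-preSC and N-Myc-preSC passed (SE 0.50 each, adjusted p = 0.923, 0.585 and 0.357).

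Tap1, a chain of the peptide transporter, starts next to Psmb9 on the opposite strand. The 225 bases between both RefSeq starts (chr17:34187331-34187555, plus strand, Tap1 to the right) are shown because Psmb9 and 1 of the 2 Tap1 probe sets, the genes on both sides, fell in C-Myc-preSC and in N-Myc-preSC. Capitals mark a CCAAT box 222 to 218 bases before the Tap1 start, a motif that 37.4% of all promoters held, and 4 members (B2m, Tapbp, Psmb9 and Tap1). The windows of Psmb9 and Tap1 share this stretch, so the same marked letters count for both.
Tap1: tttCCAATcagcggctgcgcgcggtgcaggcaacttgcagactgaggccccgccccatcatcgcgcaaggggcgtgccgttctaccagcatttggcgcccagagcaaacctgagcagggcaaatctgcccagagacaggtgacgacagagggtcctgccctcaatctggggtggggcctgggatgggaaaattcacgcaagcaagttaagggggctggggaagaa

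The brightest Tap1 probe set (1416016_at) was 5.75 and 6.36 in L-Myc-preSC, 4.73 and 6.25 in C-Myc-preSC and 5.08 and 5.11 in N-Myc-preSC, against 6.89, 6.77 and 7.82 in preSC. Every transduced array was lower than every preSC array, and the lowest values were again those of C-Myc-preSC 1 and N-Myc-preSC. The values of C-Myc-preSC 1 and both N-Myc-preSC arrays lie below the percentile used to filter dim probe sets. In that range RMA compresses differences. Tap1 fell by 2.06 in N-Myc-preSC (SE 0.48, adjusted p = 0.0144) and by 1.67 in C-Myc-preSC (SE 0.48, adjusted p = 0.0348), and without C-Myc-preSC 1 the difference in C-Myc-preSC was -0.91 (adjusted p = 0.183). The C-Myc-preSC call was also lost without any 1 preSC array (adjusted p = 0.0552 to 0.0748) or either N-Myc-preSC array (0.0621 each) and with only the arrays of both groups (0.0795), and the N-Myc-preSC call without N-Myc-preSC 1 or 2 (adjusted p = 0.0866 and 0.0827). The difference of -1.11 in L-Myc-preSC did not pass (SE 0.48, adjusted p = 0.142). A second Tap1 probe set (1448177_at) did not share this pattern. It was dim, at 5.29 and 5.37 in L-Myc-preSC, 5.14 and 5.77 in C-Myc-preSC and 5.28 and 5.03 in N-Myc-preSC, against 4.91, 5.10 and 5.08 in preSC, with differences of 0.30, 0.42 and 0.12 that did not pass (adjusted p = 0.326, 0.146 and 0.665). Without C-Myc-preSC 1 it was higher in C-Myc-preSC by 0.74 and passed (adjusted p = 0.0281), the opposite direction to the brightest probe set. The 2 remaining Tap1 probe sets (1420274_at and 1449803_x_at) lay between 3.14 and 3.68 and were not tested. Where these probe sets lie along the transcript was not analysed here.

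Tap2, the partner chain of the transporter, was lower in each transduced group. Its probe set (1453913_a_at) was 6.19 and 6.20 in L-Myc-preSC, 5.52 and 6.48 in C-Myc-preSC and 5.55 and 5.72 in N-Myc-preSC, against 7.24, 7.12 and 7.92 in preSC. No transduced array overlapped preSC, and the whole transduced range was narrower than for Psmb8. Tap2 fell by 1.23 in L-Myc-preSC (SE 0.32, adjusted p = 0.0324), by 1.43 in C-Myc-preSC (SE 0.32, adjusted p = 0.0149) and by 1.79 in N-Myc-preSC (SE 0.32, adjusted p = 0.00576). In L-Myc-preSC the call was lost when any 1 of the L-Myc-preSC, N-Myc-preSC or preSC arrays was left out, with adjusted p-values from 0.0506 without preSC 2 to 0.12 without L-Myc-preSC 2. In C-Myc-preSC it was lost without C-Myc-preSC 1 (-0.95, adjusted p = 0.0747), and in N-Myc-preSC without N-Myc-preSC 1 (-1.70, adjusted p = 0.0526).

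Tapbp encodes tapasin, the chaperone that edits the peptides bound by class I. On its brighter probe set (1421812_at) it was 7.88 and 8.13 in L-Myc-preSC, 7.19 and 7.92 in C-Myc-preSC and 7.65 and 7.58 in N-Myc-preSC, against 9.22, 9.08 and 10.27 in preSC. All 6 transduced arrays lay within 1 log2 unit of each other and all below preSC. Tapbp fell by 1.52 in L-Myc-preSC (SE 0.37, adjusted p = 0.0243), by 1.97 in C-Myc-preSC (SE 0.37, adjusted p = 0.00743) and by 1.91 in N-Myc-preSC (SE 0.37, adjusted p = 0.00729). The C-Myc-preSC call held in all 17 other settings tried. The L-Myc-preSC call was lost without L-Myc-preSC 1 or 2 (adjusted p = 0.105 and 0.0777), and the N-Myc-preSC call without N-Myc-preSC 1 or 2 (adjusted p = 0.0531 and 0.0564). The dimmer probe set (1450378_at) gave another picture: 6.51 and 6.34 in L-Myc-preSC, 6.02 and 6.23 in C-Myc-preSC and 6.33 and 6.24 in N-Myc-preSC, against 5.93, 6.23 and 6.58 in preSC. Each transduced group overlapped preSC, while both L-Myc-preSC arrays lay above both N-Myc-preSC arrays and these above both C-Myc-preSC arrays. The differences from preSC of 0.18, -0.12 and 0.04 did not pass (adjusted p = 0.561, 0.686 and 0.894).

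B2m, the class I light chain, is encoded on chromosome 2. The 250 bases before its RefSeq start (chr2:122147437-122147686, plus strand) are shown because they held more of the searched motifs than the window of any other member. Capitals mark, in order, the interferon-stimulated response element core (139 to 130 bases before the start), the NF-kB site on the opposite strand (126 to 117) and a CCAAT box on the opposite strand (53 to 49). The response element core occurred in 3.44% of all promoters, and among the members in B2m and in Psme1, where it lies after the start, and the NF-kB site occurred in 1.63% and in B2m alone.
B2m: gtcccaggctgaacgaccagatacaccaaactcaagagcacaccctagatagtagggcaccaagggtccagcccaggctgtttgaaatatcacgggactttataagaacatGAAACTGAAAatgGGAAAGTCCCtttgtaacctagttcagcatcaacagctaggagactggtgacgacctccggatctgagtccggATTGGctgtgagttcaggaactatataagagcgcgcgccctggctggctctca

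B2m (1452428_a_at) was 8.37 and 7.24 in L-Myc-preSC, 8.50 and 7.03 in C-Myc-preSC and 8.80 and 8.95 in N-Myc-preSC, against 10.20, 10.24 and 8.88 in preSC. Its order of arrays was not that of the other members: the lowest array of each group with a wide spread was L-Myc-preSC 2, C-Myc-preSC 2 and preSC 3, the arrays that were highest in their groups for Psmb8, Psmb9 and Tap1. N-Myc-preSC overlapped preSC, since N-Myc-preSC 2 lay above preSC 3. B2m fell by 1.97 in L-Myc-preSC (SE 0.57, adjusted p = 0.0446) and by 2.01 in C-Myc-preSC (SE 0.57, adjusted p = 0.0338), and the difference of -0.90 in N-Myc-preSC did not pass (SE 0.57, adjusted p = 0.256). The second probe set (1449289_a_at) had the same order within groups, at 8.06 and 6.84 in L-Myc-preSC, 8.31 and 6.74 in C-Myc-preSC and 8.48 and 8.56 in N-Myc-preSC, against 9.93, 9.78 and 8.33 in preSC. Its differences of -1.89 and -1.82 in L-Myc-preSC and C-Myc-preSC were as large but did not pass (SE 0.63 each, adjusted p = 0.0684 and 0.0626), and without preSC 3 they were -2.40 and -2.33 and passed (adjusted p = 0.0291 and 0.0249). They also passed without C-Myc-preSC 1 (adjusted p = 0.0424 and 0.0413), and the L-Myc-preSC one without C-Myc-preSC 2 (0.0424). On the first probe set the L-Myc-preSC call was lost without L-Myc-preSC 1 (-2.53, adjusted p = 0.0521) or 2 (-1.41, adjusted p = 0.232) and the C-Myc-preSC call without C-Myc-preSC 2 (-1.28, adjusted p = 0.163). Both calls were also lost without preSC 1 (adjusted p = 0.123 and 0.0974), preSC 2 (adjusted p = 0.126 and 0.0997) or either N-Myc-preSC array (adjusted p = 0.0783 and 0.0605 each) and with only the arrays of both groups (adjusted p = 0.057 and 0.0652). The L-Myc-preSC call was lost, too, without the filter on dim probe sets (0.0567), with 1 probe set per gene (0.0645) and with intensity trend and robust moderation (0.0503), so it held in 7 of 17 other settings and the C-Myc-preSC call in 11. Without preSC 3 the B2m difference in N-Myc-preSC was -1.34 and did not pass (adjusted p = 0.0912). It passed in 1 of 17 other settings, chosen after the data were seen, in which L-Myc-preSC 2 and C-Myc-preSC 2 were left out of the spread as well (-1.34, adjusted p = 3e-06). Among the leukocyte markers, the lysozyme gene Lyz2 was low in the same 3 arrays, at 6.44 in L-Myc-preSC 2, 6.76 in C-Myc-preSC 2 and 5.61 in preSC 3, against 9.31 to 12.31 in the other 6. Ptprc and Adgre1 of the same list showed no such gap, at 3.57 to 4.22 and 4.49 to 4.72 over all 9 arrays. Dcn was high in these 3 arrays, unlike Col1a1 and Lum. Hdgfl3 (1450924_at) was low in them, at 3.79, 3.37 and 5.29 in the same order, against 10.13 to 10.51 in the other 6. The part of any of these in the B2m values was not tested.

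Nlrc5, the class I transactivator, was near the floor of the array. Its probe set (1437176_at) was 4.19 and 4.17 in L-Myc-preSC, 4.63 and 4.25 in C-Myc-preSC and 4.87 and 5.06 in N-Myc-preSC, against 5.25, 5.45 and 4.67 in preSC. Only preSC 2 lay above the 40th percentile of its array, so Nlrc5 was not tested, and values this low say little about its level.

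**Figure D2:**
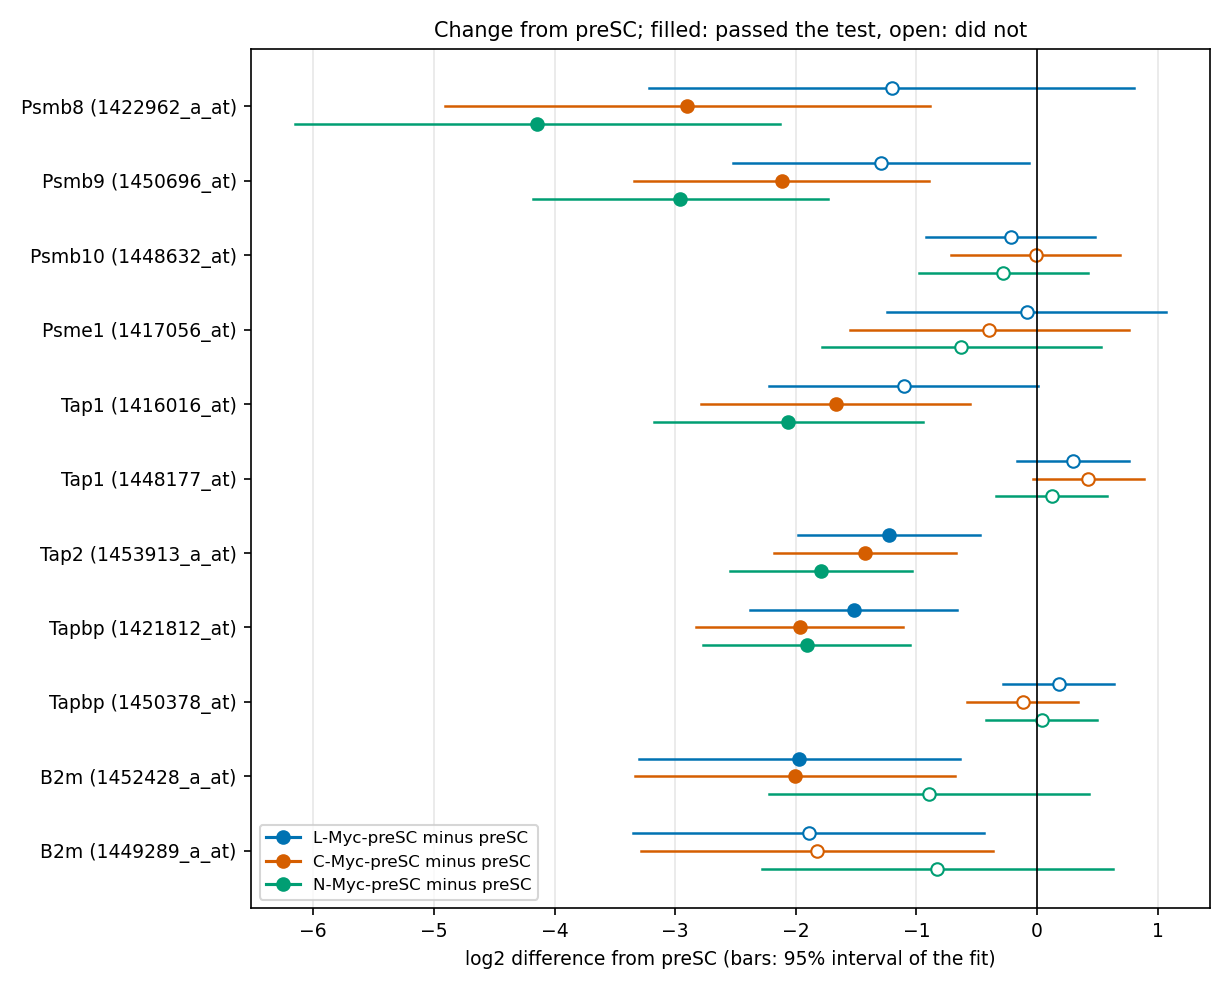
Log2 difference of each transduced group from preSC (x axis) for the 11 tested member probe sets (y axis), with 95% intervals of the limma fit; filled points passed the test at an adjusted p of 0.05. Psmb8 lay at -1.21 in L-Myc-preSC, -2.90 in C-Myc-preSC and -4.14 in N-Myc-preSC, while Psmb10 and Psme1 had intervals that include 0 in all 3 groups.

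The C-Myc-preSC arrays stood apart from each other at most members, and their mean hides this. C-Myc-preSC 1 was lower than C-Myc-preSC 2 by 3.57 at Psmb8, 1.93 at Psmb9, 1.52 at Tap1 (1416016_at), 1.46 at Psme1, 0.96 at Tap2 and 0.73 at Tapbp (1421812_at). At B2m it was higher, by 1.46 (1452428_a_at) and 1.57 (1449289_a_at), and at Psmb10 the arrays differed by 0.05. Set against the other groups, C-Myc-preSC 1 differed from the N-Myc-preSC mean by -0.54 at Psmb8, -0.13 at Psmb9, -0.37 at Tap1 (1416016_at), -0.12 at Tap2, -0.50 at Psme1, -0.42 at Tapbp (1421812_at) and -0.38 at B2m (1452428_a_at). C-Myc-preSC 2 differed from the L-Myc-preSC mean by 0.09 at Psmb8, 0.14 at Psmb9, 0.19 at Tap1 (1416016_at), 0.28 at Tap2, 0.42 at Psme1, -0.08 at Tapbp (1421812_at) and -0.77 at B2m (1452428_a_at). C-Myc-preSC 1 was the lowest of the 9 arrays at 6 of the 11 member probe sets, and preSC 3 the highest at 8. How often these arrays were lowest or highest over all tested probe sets was not counted, so these counts show no trait of the members. Single arrays allow no test of the difference between C-Myc-preSC 1 and 2.

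**Figure D3:**
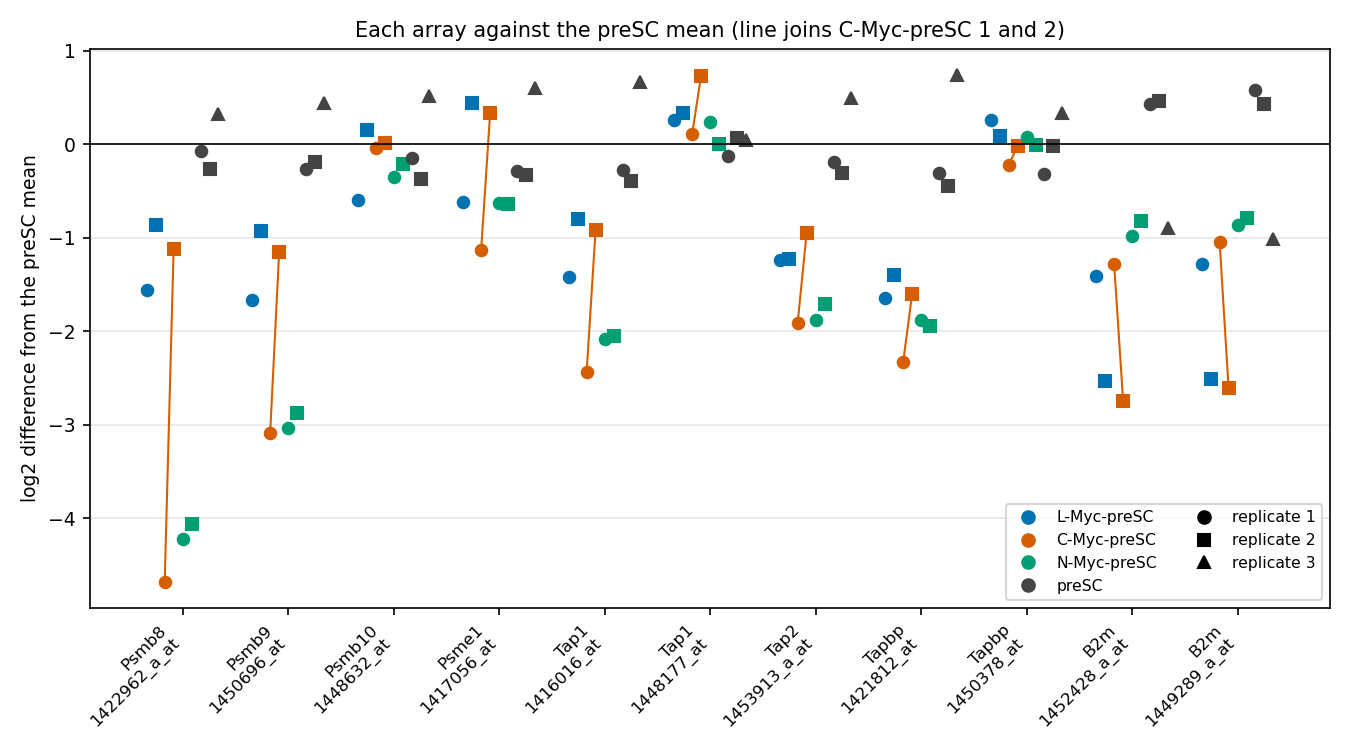
Log2 difference of each array from the preSC mean (y axis) at the 11 tested member probe sets (x axis), coloured by group, with marker shapes for the replicate number and a line joining C-Myc-preSC 1 and 2. At Psmb8, C-Myc-preSC 1 lay at -4.68, next to the N-Myc-preSC arrays, and C-Myc-preSC 2 at -1.11, between the L-Myc-preSC arrays, and at B2m the order of the C-Myc-preSC arrays was turned round.

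Between the transduced groups, no member passed the test. In L-Myc-preSC against N-Myc-preSC, limma called 0 of the 11 (2 at an unadjusted p under 0.05), where 0% of all tested probe sets were called. These 2 were Psmb8, higher in L-Myc-preSC by 2.94 (95% interval 0.74 to 5.14, adjusted p = 0.178), and Psmb9, higher in L-Myc-preSC by 1.66 (0.32 to 3.00, adjusted p = 0.198), with both L-Myc-preSC arrays above both N-Myc-preSC arrays. Both passed with either C-Myc-preSC array left out of the fit (adjusted p = 0.00402 each for Psmb8 and 0.0267 each for Psmb9), since those arrays add to the estimate of the spread. At 8 of the 11 probe sets both L-Myc-preSC arrays were above both N-Myc-preSC arrays, and at 2, those of B2m, both were below, where 26.0% and 28.8% of all tested probe sets did so. In C-Myc-preSC against N-Myc-preSC, 0 of the 11 were called (0 at an unadjusted p under 0.05), where 0.00343% of all were called, and Psmb8 differed by 1.24 (-0.96 to 3.44). Without C-Myc-preSC 1, Psmb8 was higher in C-Myc-preSC by 3.03 (adjusted p = 0.0141). In L-Myc-preSC against C-Myc-preSC, 0 of the 11 were called (0 at an unadjusted p under 0.05), where 0% of all were called, and Psmb8 differed by 1.69 (-0.51 to 3.90). Without C-Myc-preSC 2 it was higher in L-Myc-preSC by 3.48 (adjusted p = 0.00738). These intervals are wide, so the failed tests do not show that the groups were alike. L-Myc-preSC also differs from C-Myc-preSC and N-Myc-preSC in the labelled molecule, which cannot be told apart from the group here.

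The constitutive catalytic subunits did not follow their inducible counterparts. Psmb5, the counterpart of Psmb8, differed from preSC by 0.23, 0.24 and 0.28 in L-Myc-preSC, C-Myc-preSC and N-Myc-preSC and passed in none (SE 0.15 each, adjusted p = 0.289, 0.251 and 0.177). Psmb6, the counterpart of Psmb9, differed by 0.37, 0.45 and 0.32 and passed in none (SE 0.24 each, adjusted p = 0.32, 0.202 and 0.331). Psmb7, the counterpart of Psmb10, was 12.86 and 12.87 in L-Myc-preSC, 13.03 and 12.87 in C-Myc-preSC and 12.99 and 13.03 in N-Myc-preSC, against 10.63, 9.93 and 9.99 in preSC. It was the one catalytic subunit that rose, by 2.68, 2.77 and 2.83 (SE 0.22 each, adjusted p = 0.000442, 0.000363 and 0.000367), with all transduced arrays above all preSC arrays on its only probe set. Over the 15 constitutive proteasome and assembly genes, 3, 5 and 6 rose in L-Myc-preSC, C-Myc-preSC and N-Myc-preSC, and none fell. The medians were 0.40, 0.47 and 0.38. Over the brightest probe sets of 12976 genes, 6.82%, 10.7% and 13.3% rose, 10.1%, 15.1% and 17.5% fell, and the medians were -0.04, -0.05 and -0.03. Psme3, the gene of PA28 gamma, which forms a nuclear activator distinct from that of Psme1 and Psme2, rose by 3.03, 3.78 and 3.71 (SE 0.27 each). Its second probe set (1418079_at) was 8.57 and 9.52 in L-Myc-preSC, 9.93 and 9.71 in C-Myc-preSC and 9.58 and 9.71 in N-Myc-preSC, against 8.29, 8.14 and 8.52 in preSC, a smaller gap than the first.

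**Figure D4:**
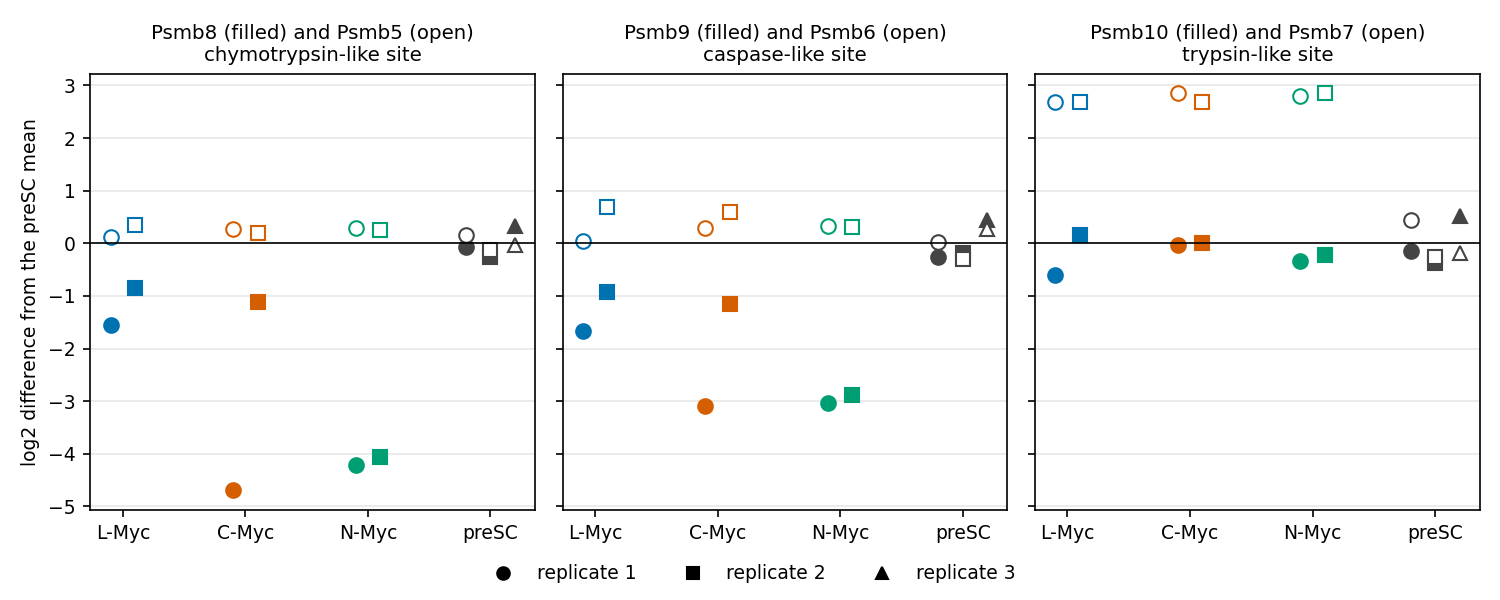
Log2 difference of each array from the preSC mean (y axis) for the inducible subunits (filled) and their constitutive counterparts (open), by group on the x axis, with marker shapes for the replicate number. Psmb8 and Psmb9 lay below the preSC mean in all 6 transduced arrays while Psmb5 and Psmb6 lay 0.04 to 0.70 above it, and Psmb7 lay 2.68 to 2.85 above it while Psmb10 stayed within 0.60 of it.

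The MHC class I heavy chain genes could be seen only in part, since 9 of the 18 listed had a probe set of their own and 7 were tested, too few to stand for the class. Of these 7, 1 rose and 0 fell in L-Myc-preSC, 1 rose and 1 fell in C-Myc-preSC, and 1 rose and 4 fell in N-Myc-preSC, with medians of -0.48, -1.18 and -1.66. Over the brightest probe sets of all genes, 6.82%, 10.7% and 13.3% rose and 10.1%, 15.1% and 17.5% fell, so single calls among 7 genes are near what all genes gave. H2-D1, a classical class I gene, was 11.00 and 11.72 in L-Myc-preSC, 9.62 and 11.65 in C-Myc-preSC and 9.88 and 10.28 in N-Myc-preSC, against 11.75, 11.67 and 12.12 in preSC (1451784_x_at). C-Myc-preSC 1 and both N-Myc-preSC arrays were low and the other 3 transduced arrays lay close to preSC, and H2-D1 fell by 1.77 in N-Myc-preSC (SE 0.53, adjusted p = 0.0367), a call lost without any 1 array of N-Myc-preSC or preSC (adjusted p = 0.0748 to 0.188). Its differences of -0.48 in L-Myc-preSC and -1.21 in C-Myc-preSC did not pass (adjusted p = 0.561 and 0.126). Probe sets of this type can pick up several near-identical class I genes, so the gene behind the signal is uncertain. The H2-D1 probe sets 1425545_x_at, 1451683_x_at and 1426324_at were lower in N-Myc-preSC as well. Their means there were 10.10, 7.43 and 7.31, against 11.80, 9.12 and 8.82 in preSC. The dimmest tested one (1452544_x_at) was 5.48 and 5.94 in N-Myc-preSC, against 5.89 to 6.06 in preSC. H2-M3, which presents formylated peptides, was 8.13 and 8.24 in L-Myc-preSC, 5.84 and 8.02 in C-Myc-preSC and 6.03 and 5.97 in N-Myc-preSC, against 8.55, 8.50 and 9.05 in preSC. It fell by 1.77 in C-Myc-preSC (SE 0.54, adjusted p = 0.042) and by 2.70 in N-Myc-preSC (SE 0.54, adjusted p = 0.00824), with the same arrays low. Without C-Myc-preSC 1 the difference in C-Myc-preSC was -0.68 (adjusted p = 0.087), and that call was lost without any 1 array other than C-Myc-preSC 2 (adjusted p = 0.056 to 0.0943). The N-Myc-preSC call was lost without N-Myc-preSC 1 or 2 (adjusted p = 0.0581 and 0.0595). Cd1d1, which presents lipids and does not depend on the TAP transporter, was the class I list member that rose, by 1.97, 2.00 and 1.32 in L-Myc-preSC, C-Myc-preSC and N-Myc-preSC (SE 0.26 each, adjusted p = 0.00243, 0.00187 and 0.00791), the N-Myc-preSC rise not passing without N-Myc-preSC 1 (adjusted p = 0.0689).

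Of the 9 tested peptide loading and trimming partners, 0, 1 and 0 rose and 2, 3 and 2 fell in L-Myc-preSC, C-Myc-preSC and N-Myc-preSC, with medians of -0.37, -0.20 and -0.30. Over all genes 6.82%, 10.7% and 13.3% rose and 10.1%, 15.1% and 17.5% fell, and counts of 0 to 3 among 9 genes are too few to read against those shares. Hspa5, an endoplasmic reticulum chaperone, fell by 0.73, 0.65 and 0.65 (SE 0.18 each), and each call was lost without preSC 2, preSC 3 or an array of its own group, in C-Myc-preSC its array 1 (adjusted p = 0.0535 to 0.171). Another Hspa5 probe set (1427464_s_at) was 11.33 to 11.84 in the transduced arrays, against 11.42 to 12.02 in preSC, with group means of 11.52, 11.69 and 11.66, against 11.63. On 1447824_x_at all transduced arrays lay below preSC, as on the brightest probe set, at 9.77 to 10.24, against 10.31 to 10.56. Tapbpl, a tapasin relative that also edits peptides, fell by 1.06 in C-Myc-preSC (SE 0.29, adjusted p = 0.0274), but not without C-Myc-preSC 1 (-0.67, adjusted p = 0.147) or any 1 preSC array (adjusted p = 0.0521 to 0.0694), and differed by -0.73 in L-Myc-preSC and -0.62 in N-Myc-preSC without passing (adjusted p = 0.11 and 0.128). Sec61a1, a translocon subunit, fell by 0.61, 0.51 and 0.66 on its brightest probe set, and each call was lost without at least 1 array of its own group (adjusted p = 0.0631 to 0.084). Another of its probe sets (1416191_at) ran the other way, at 10.10 to 10.32 in the transduced arrays, against 7.71 to 7.97 in preSC. So did 1416190_a_at, at 9.77 to 9.98, against 7.42 to 7.59, and 1448242_at, at 10.51 to 10.76, against 9.87 to 10.25. Only the brightest probe set had every transduced array below preSC, so the direction for this gene rests on the probe set. Tpp2, a peptidase, rose on its brightest probe set by 0.49 in C-Myc-preSC (SE 0.15, adjusted p = 0.0389). This call was lost without any 1 array other than C-Myc-preSC 2. Larger gaps appeared on 1438264_a_at, with group means of 9.47, 9.63 and 9.59, against 8.04 in preSC. On 1430575_a_at the means were 7.82, 7.92 and 8.03, against 6.73. On both, and on 1421893_a_at, all transduced arrays lay above all preSC arrays. On 1430576_at C-Myc-preSC 2 overlapped preSC. The size of the Tpp2 rise therefore rests on the probe set.

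Of the 21 tested genes of interferon signalling and class I regulation, 2, 2 and 2 rose and 2, 3 and 4 fell in L-Myc-preSC, C-Myc-preSC and N-Myc-preSC, with medians of -0.36, -0.37 and -0.24. These counts are near the shares over all genes, of which 6.82%, 10.7% and 13.3% rose and 10.1%, 15.1% and 17.5% fell. Jak2, a kinase of the interferon gamma receptor, was 8.66 and 8.51 in L-Myc-preSC, 7.84 and 8.46 in C-Myc-preSC and 7.87 and 7.84 in N-Myc-preSC, against 9.17, 9.39 and 9.65 in preSC (1421066_at). On this probe set it fell in all 3 groups, by 0.82, 1.26 and 1.55 (SE 0.22 each, adjusted p = 0.0324, 0.00543 and 0.00228), and the L-Myc-preSC call was lost without preSC 2, preSC 3 or any 1 array of L-Myc-preSC or N-Myc-preSC (adjusted p = 0.0613 to 0.147). On its other tested probe set (1421065_at) Jak2 was 7.80 and 7.44 in L-Myc-preSC, 6.17 and 7.56 in C-Myc-preSC and 6.75 and 6.71 in N-Myc-preSC, against 7.42, 7.80 and 7.85 in preSC, so L-Myc-preSC lay within the range of preSC. Rela, an NF-kB subunit, fell by 1.26 in C-Myc-preSC and 1.64 in N-Myc-preSC (SE 0.22 each, adjusted p = 0.00607 and 0.0021), and its difference of -0.62 in L-Myc-preSC did not pass (adjusted p = 0.0891). Ifngr2, a chain of the interferon gamma receptor, rose on its brightest probe set by 1.15, 1.53 and 1.88 (SE 0.23 each; the L-Myc-preSC rise had adjusted p = 0.0645 without L-Myc-preSC 1). Its other tested probe set (1423558_at) was 5.73 to 6.32 in the transduced arrays, against 5.87 to 6.18 in preSC, with no such gap. Nfya, a subunit of the factor that binds CCAAT boxes, rose by 1.06, 1.23 and 1.35 (SE 0.17 each). Of the 3 tested MHC class II genes, 0 passed in limma in any comparison with preSC, and H2-Eb1 lay between 4.93 and 5.73 over all 9 arrays.

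The genes most like the members were ranked by the mean absolute difference, over the 9 arrays, between a gene's centred values and the median profile of the 8 tested members. The median over 12968 other genes was 0.74. The 5 closest were 9030622O22Rik (0.10), Cd9 (0.13), a tetraspanin gene, Zkscan7 (0.13), a zinc finger gene, Tm7sf2 (0.13), a sterol reductase gene, and Tmem159 (0.13), a transmembrane protein gene. Cd9 was 12.97 and 13.58 in L-Myc-preSC, 11.98 and 13.53 in C-Myc-preSC and 12.43 and 12.65 in N-Myc-preSC, against 14.07, 14.02 and 14.41 in preSC. Its group means had the same order as those of Psmb9, and C-Myc-preSC 1 lay below C-Myc-preSC 2. Cd9 was chosen for its likeness to the members over these same arrays, so this order follows from the choice and is no separate result.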

How the data were processed

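Values are log2 intensities, 1 per probe set and array, that the authors deposited. The submitters' processing notes name RMA, affy and R 3.0.1. RMA corrects background, equalizes the array distributions and compresses differences among dim probe sets. The version of affy is not stated. Array medians lay between 6.02 and 6.07, so no further scaling was applied.

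Probe sets were named through the platform annotation: of 45101, 34945 had 1 symbol, 932 had several, 9160 were not listed, and 64 were controls. Of the named, 34741 matched RefSeq genes (GRCm38.p6), and no symbol changed. The brightest probe set is the one with the highest mean over all arrays. Gene position and promoter sequence came from RefSeq, while no source names the genome build of the array's annotation.

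Group means were fitted to each of 29140 probe sets over all 9 arrays with limma 3.58.1 (R 4.3.3), without covariates. Two-sided p-values were adjusted over all probe sets (Benjamini-Hochberg, threshold 0.05). Each transduced group was compared with preSC, and the transduced groups with each other, which gave 6 comparisons. Precision is limited by the number of arrays. The fit was tested on simulated data. Alternatives covered the filter, probe set choice, variance moderation, scaling, arrays in the fit, a replicate block and leaving out arrays.

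The members, the pathway and marker lists and the naming rule were chosen with earlier results of these data known. The rule names every member probe set and, per list, up to 4 genes by the largest change past the threshold, or up to 2 where none passed. The text gives part of these. Myc, Mycl, Mycn, Pvt1, Hdgfl3, H2-K1, the proteasome counterparts Psmb5 and Psmb6, and the genes most like the members were named besides.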

Additional observations from a re-analysis of the deposited data

Results flagged for a closer look

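On the dimmer Tapbp probe set (1450378_at), both L-Myc-preSC arrays lay above the preSC mean and both C-Myc-preSC arrays below it, and the groups differed by 0.30 (L-Myc-preSC minus C-Myc-preSC). The limma test of this difference did not pass (95% interval -0.20 to 0.80, adjusted p = 0.861), and the preSC arrays themselves spread from 5.93 to 6.58.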

How the results depend on the processing

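No member changed direction among those called. Of the results for single member probe sets, 1007 kept their side of the threshold over all alternatives, 39 passed it newly and 58 lost it. These numbers pool all 6 comparisons, and most of the 1007 were not called in the main fit either. The 58 losses all fall on the 3, 6 and 5 member calls of the main fit in L-Myc-preSC, C-Myc-preSC and N-Myc-preSC against preSC. With each array left out in turn, the calls among the 11 member probe sets ranged from 0 to 6 in L-Myc-preSC against preSC, 2 to 5 in C-Myc-preSC against preSC and 1 to 5 in N-Myc-preSC against preSC. They ranged from 0 to 1 in C-Myc-preSC against N-Myc-preSC, 0 to 1 in L-Myc-preSC against C-Myc-preSC and 0 to 2 in L-Myc-preSC against N-Myc-preSC. Over all probe sets the calls ranged from 3348 to 8016, 5504 to 9153, 3783 to 11576, 0 to 852, 0 to 1180 and 0 to 2462 in the same order of comparisons. Where 1 array was left in a group, it was taken to vary like the other groups.

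Without preSC 3, L-Myc-preSC 2 and C-Myc-preSC 2, chosen after seeing the data, 7 member probe sets were called in L-Myc-preSC against preSC, 5 in L-Myc-preSC against C-Myc-preSC and 5 in L-Myc-preSC against N-Myc-preSC. Over all probe sets, 10624, 14911 and 16642 were called in L-Myc-preSC, C-Myc-preSC and N-Myc-preSC against preSC, and 251, 7192 and 8259 in C-Myc-preSC against N-Myc-preSC, L-Myc-preSC against C-Myc-preSC and L-Myc-preSC against N-Myc-preSC. In this setting L-Myc-preSC and C-Myc-preSC have 1 array each and the spread comes from preSC 1 and 2 and N-Myc-preSC 1 and 2. With 1 probe set per gene, 1748, 3049 and 3741 of 12976 genes were called against preSC and 0 in C-Myc-preSC against N-Myc-preSC. With only the arrays of the groups compared, 2 member probe sets were called in C-Myc-preSC against preSC and 1 in L-Myc-preSC against N-Myc-preSC, and over all probe sets 0 in C-Myc-preSC against N-Myc-preSC and 669 in L-Myc-preSC against N-Myc-preSC. That setting also ended the calls of Hspa5 (0.063), Sec61a1 (0.0598), H2-M3 (0.1) and Tpp2 (0.0877) in C-Myc-preSC, and the H2-M3 call was also lost without the filter on dim probe sets (0.0544) and with 1 probe set per gene (0.0538). The cause of these shifts was not tested.

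With the replicate number as a block (replicate block), 3, 5 and 5 member probe sets were called against preSC and 0 between transduced groups. In L-Myc-preSC, Tap2 did not pass (-0.98, adjusted p = 0.0609) and the second B2m probe set did (0.0165), and in C-Myc-preSC Psmb8 (0.0616) and Tap1 (0.0515) did not and the second B2m probe set did (0.0142). Of the other named genes, the calls of Jak2 in L-Myc-preSC (0.0783), Sec61a1 in L-Myc-preSC and C-Myc-preSC (0.0599 and 0.0773) and H2-M3 and Tpp2 in C-Myc-preSC (0.0811 and 0.11) were lost. Over all probe sets 5211, 7659 and 8789 were called against preSC and 0 in C-Myc-preSC against N-Myc-preSC, where 1 had been called. The numbers are only shared numbers, since same-numbered arrays correlated in their deviations from the group means between -0.64 and 0.61, and the block leaves preSC 3 without a partner. Searching only the bases before the start left the response element core in 1 member (B2m) instead of 2.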
